A study of Mus musculus with 3 samples.

Results

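The genes described here are the MHC class II antigen presentation genes and their regulator Ciita, 10 of 24402 gene symbols measured in 4T1 cancer stem cell spheroids (CSCsp). They are the chain genes H2-Aa, H2-Ab1 and H2-Eb1, the invariant chain gene Cd74, the peptide loading genes H2-DMa, H2-DMb1 and H2-DMb2, the protease gene Ctss, and the regulators Ciita and Rfx5. They were selected by name, with their expression in these same 3 libraries already known, so differences between the libraries are given as a description and carry no test. The study asked how CSCsp respond to immune attack of different strength. 4T1 is a mammary carcinoma line from Balb/c mice, and all 3 conditions used CSCsp grown for 7 days without attachment and without serum, with SM1 supplement, EGF, FGF and heparin, and kept when they were held back by a 40 μm strainer. Libraries are called by the condition their labels name. The N library holds CSCsp that met no splenocytes. The P library holds CSCsp co-cultured for 2 days with splenocytes of Balb/c mice that received 4T1 cells at 8 weeks of age and carried the tumor for 28 days, with the splenocytes held in DPBS in between. The R library holds CSCsp co-cultured with the same kind of splenocytes after further activation by anti-CD3/CD28 Dynabeads and IL2. After co-culture the CSCsp were washed over the strainer to remove single splenocytes, and the methods say that RNA of independent experiments was multiplexed for sequencing. The files hold 1 library of 1 cell line for each condition, so no SD or p-value can be given.

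MHC class II molecules are pairs of an alpha and a beta chain that present peptides from endosomes to CD4+ T cells. They are made by B cells, dendritic cells and macrophages, and many other cells, carcinoma cells among them, make them when interferon gamma is present. The chains are assembled with the invariant chain CD74, cathepsin S trims that chain, and H2-DM exchanges its last fragment for a peptide. CIITA binds no DNA itself. It is recruited to an array of promoter letters, the X and Y boxes, by RFX, CREB and NF-Y factors, and its own gene starts from separate promoters in dendritic cells, in B cells and after interferon gamma.

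Levels are given as FPKM, the deposited measure of fragments scaled to transcript length and library size, summed over the transcripts of a gene. The N, P and R libraries held 17894139, 17887652 and 19178982 fragments. Intervals are exact 95% intervals on estimated fragments, Poisson for a level and Clopper-Pearson for a ratio, scaled to the FPKM. They cover counting error only, not the spread between experiments or the division of reads among transcripts of unlike length. The labels of the N and P libraries are in doubt. The names given to the deposited files refer to the saline for the N library and to an absence of treatment for the P library. Of 57 leukocyte markers in 6 lists, 15 reached an FPKM of 1 in the N library, 7 in the P library and 17 in the R library. The labels were kept, and each direction between N and P rests on them. A very low value can also be a failed estimate, since the housekeeping gene Hprt had an FPKM of 22.7 and 23.8 in the N and P libraries and of 0.0025 in the R library.

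The 3 chain genes were barely present in the N and P libraries and clearly present in the R library. H2-Ab1, which encodes the beta chain of I-A, had an FPKM of 3.06 (interval 2.36 to 3.90) in the N library, 1.92 (1.38 to 2.61) in the P library and 84.4 (80.7 to 88.3) in the R library. The level in the R library was 27.6-fold that of the N library (interval 21.6 to 35.9) and 43.9-fold that of the P library (32.3 to 61.4). H2-Aa, the alpha chain of I-A, had an FPKM of 1.03 in the N library, was listed at 0 in the P library, and had 50.9 in the R library. These levels rest on 20, 0 and 1043 fragments, so that R was 49.4-fold above N (31.7 to 81.5). H2-Eb1, the beta chain of I-E, had an FPKM of 1.23, 0.088 and 47.8 in the N, P and R libraries. The ratio of R over N was 39.0 (28.1 to 55.6), while R over P, at 546-fold (174 to 3104), rests on 3 fragments in the P library. In H2-Ab1 and H2-Eb1 the interval of the R library lay apart from those of both other libraries, and in H2-Aa from that of the N library. For H2-Aa in the P library, listed at 0, no interval was computed. In GRCm38 coordinates the chain genes lie on chromosome 17, H2-Ab1 from 34263227 to 34269418 and H2-Eb1 from 34305867 to 34316674 on the plus strand, and H2-Aa between them from 34282751 to 34287771 on the minus strand. Summed, the chains had an FPKM of 5.32, 2.01 and 183 in the N, P and R libraries.

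**Figure D1:**
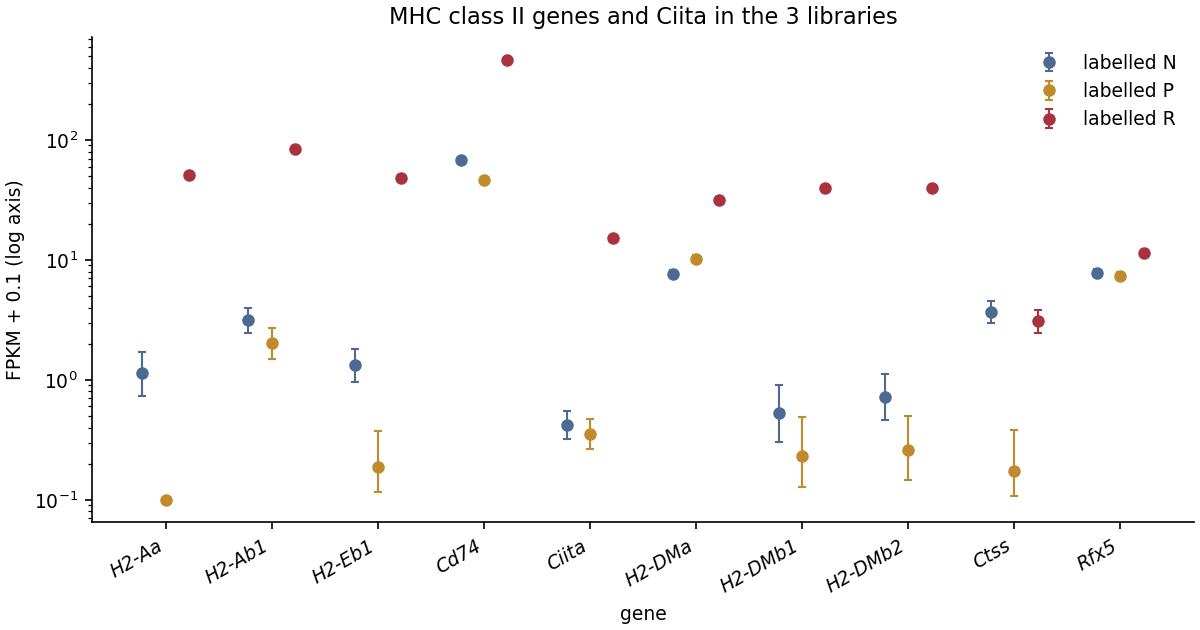
FPKM plus 0.1 on a log axis for the 10 genes, with 1 point for each library and bars for the exact Poisson interval at 95%, which covers counting error only (H2-Aa in the P library is listed at 0 and has no bar). In 9 of the 10 genes the R library is the highest, from 11.3 for Rfx5 to 466 for Cd74, and in Ctss the N library is.

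Over all 10 genes, 8 were at least 2-fold higher in the R library than in the N library and 0 were lower. Among the 11203 genes with an FPKM of 1 or more in either library, 3.09% were higher by that fold and 1.88% lower. Because the genes were selected with these values known, that share is background and nothing is read from the excess. For R over P, 9 of the 10 were higher and 0 lower, against 4.16% and 1.69% of 11213 genes. For P over N, 0 were higher and 3 lower, against 0.521% and 1.55% of 11139 genes. The minimum was reached by all 10 genes in both comparisons with R, by 3 of them in R over N and by 6 in R over P through the R library alone. In P over N it was reached by 7 genes, by 3 through the N library alone, and those 3 are the genes counted as lower. Over all 10 genes the median log2 ratio of R to N was 4.96, that of R to P 5.40 and that of P to N -0.92, with a pseudocount of 0.1 FPKM. Over all genes that reached the minimum the medians were 0.077, 0.029 and 0.033. The medians of the group used no minimum, and for P over N 3 of its genes were under it. By log2 ratio of R over N, H2-DMb1, H2-DMb2, H2-Aa, Ciita and H2-Eb1 stood at ranks 3, 5, 8, 13 and 15 of the 11203 genes. Ctss stood at rank 9632.

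**Figure D2:**
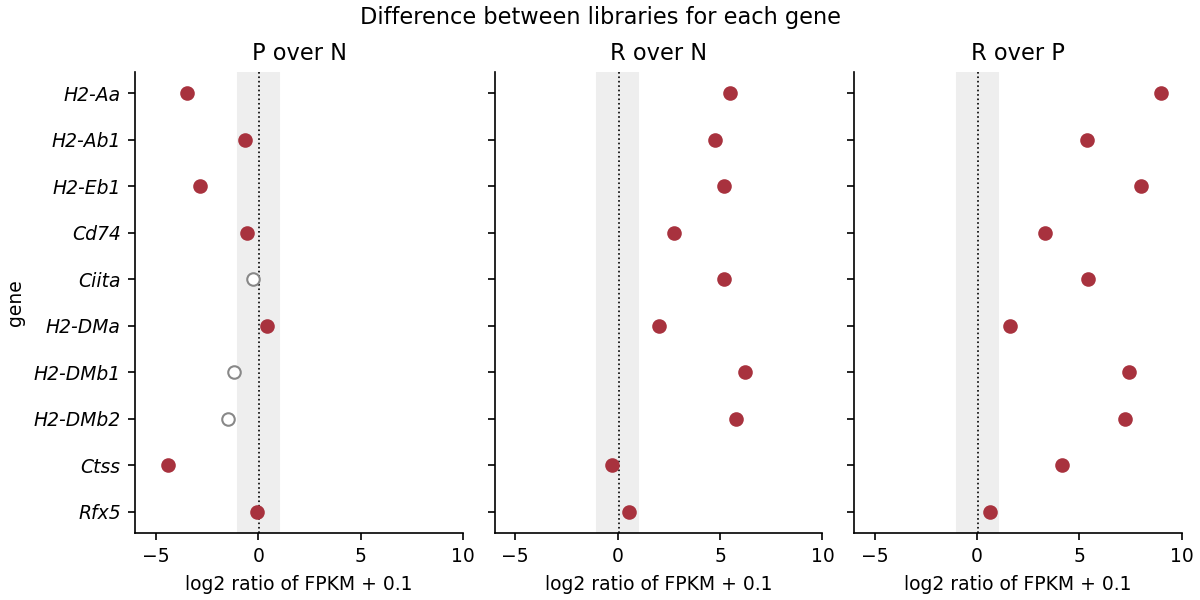
Log2 ratio of FPKM plus 0.1 for each gene in the 3 comparisons. Filled points have an FPKM of 1 or more in either library and open points do not. The grey band is less than 2-fold, and the dotted line is the median over all genes that reach that FPKM. For R over N, 8 genes lie to the right of the band, while Ctss at -0.26 and Rfx5 at 0.57 lie inside it.

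Reads did not cover the chains evenly. In the R library the second exon of H2-Aa, which encodes the outer domain that holds the peptide, had a coverage of 60.8 reads per base against 416 for the third exon, or 14.6%. In H2-Eb1 the second exon had 58.0 against 669, or 8.67%. In H2-Ab1 the order was the other way round, with 676 in the second exon and 402 in the third. The outer domain is the most variable part of these chains between mouse strains. The reference genome is that of C57BL/6, which carries haplotype b, while Balb/c mice carry haplotype d, and the part this difference plays in the coverage was not tested. FPKM of H2-Aa and H2-Eb1 averages such exons with the rest. On the third exon alone, with coverage scaled to the aligned bases of each library as FPKM is, R over N was 52.6-fold for H2-Aa, 33.9-fold for H2-Ab1 and 34.98-fold for H2-Eb1.

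Of 4 other class II chain genes in the files, 2 reached an FPKM of 1. H2-Ea-ps, the gene of the I-E alpha chain that is intact in Balb/c mice and a pseudogene in C57BL/6, had an FPKM of 1.01 in the N library, was listed at 0 in the P library and had 17.9 in the R library. It was 17.8-fold higher in R than in N (10.6 to 31.9). H2-Oa, the alpha chain of the DM inhibitor H2-DO, had 0.77, 0.27 and 1.25, on 14, 5 and 25 fragments, and R over N was 1.63 with an interval of 0.820 to 3.36. Its partner H2-Ob had an FPKM of 0, 0 and 0.027, and H2-Eb2 was listed at 0 in all 3 libraries.

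Promoters of 7 of the 10 genes are held in a RefSeq table of windows that run from 250 bases before a start to 50 after it, in the build GRCm38.p6. Those of H2-Ab1, Cd74 and Ciita are not among them. The windows were searched before the start for letters of the X box (CTNNNAAC) and of the Y box (TGATTGG), on both strands for each motif alone. The pair was counted where the X letters came first and 15 to 35 bases lay between the motifs, read along the gene. The motif letters were set with these promoters in view, so that the genes hold them is no finding. H2-Aa, H2-Eb1, H2-DMb1 and H2-DMb2 hold the pair and are shown because the gene values of all 4 were high only in the R library. For H2-DMb1, NM_010387, the transcript of the shown start, had an FPKM of 0.10, 0 and 0.11 in the N, P and R libraries. Most of the H2-DMb1 level in the R library, 30.8 of 39.4, lay on an assembled transcript that starts at 34145019, outside that window. H2-Ob is shown because it holds the same letters and had an FPKM of at most 0.0271. In these lines each sequence is given along the gene, 5′ to 3′, with the X and Y letters in capitals.
H2-Aa, chr17:34287847-34287927, minus strand: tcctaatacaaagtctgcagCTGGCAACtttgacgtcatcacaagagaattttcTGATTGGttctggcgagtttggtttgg
H2-Eb1, chr17:34305753-34305832, plus strand: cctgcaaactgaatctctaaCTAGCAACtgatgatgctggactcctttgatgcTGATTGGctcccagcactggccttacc
H2-DMb1, chr17:34153074-34153154, plus strand: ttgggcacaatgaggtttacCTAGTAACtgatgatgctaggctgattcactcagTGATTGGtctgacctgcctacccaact
H2-DMb2, chr17:34145103-34145183, plus strand: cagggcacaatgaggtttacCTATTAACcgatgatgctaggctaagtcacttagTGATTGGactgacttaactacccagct
H2-Ob, chr17:34238795-34238872, plus strand: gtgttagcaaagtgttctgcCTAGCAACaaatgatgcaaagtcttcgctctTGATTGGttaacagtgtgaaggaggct

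Between the capitals lay 26 bases in H2-Aa, H2-DMb1 and H2-DMb2, 25 in H2-Eb1 and 23 in H2-Ob. The Y letters began 50 bases before the start given in the promoter table in H2-Aa, 61 in H2-Eb1, 63 in H2-DMb1, 92 in H2-DMb2 and 59 in H2-Ob. For H2-Aa and H2-DMb2 that start differs from the start of the RefSeq transcript in the expression data. In H2-DMb2 the letters lie within the first exon (34145019 to 34145470) of the assembled transcript that held most of its level. Among 27025 genes of the table, 39.3% held the X letters, 8.38% held the Y letters and 0.0777%, or 21 genes, held the ordered pair. Apart from H2-Aa, H2-Eb1, H2-DMb1 and H2-DMb2, 17 genes held it, 6 of which had an FPKM of at least 1 in the N or R library. Of these 6, 0 were 2-fold apart for R over N. The highest was Top2a, the DNA topoisomerase of dividing cells, with an FPKM of 45.6 in the N library and 50.4 in the R library. A match of letters is a description of the window and not evidence of binding, and H2-Ob shows the letters without the level.

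Cd74, which encodes the invariant chain, was the gene of the group with the highest level in every library. It had an FPKM of 68.0 (64.6 to 71.5) in the N library, 46.1 (43.3 to 49.0) in the P library and 466 (457 to 475) in the R library. The R library was 6.86-fold above N (6.50 to 7.24) and 10.1-fold above P (9.49 to 10.8). Unlike the chains, Cd74 was thus well measured in the N library, with 1507 fragments. Its transcripts differ by an exon that adds a protease inhibitor domain. The form with it (NM_001042605) had an FPKM of 5.76, 3.85 and 57.0 in the N, P and R libraries, and the shorter form (NM_010545) had 62.2, 42.2 and 409. The longer form thus held 9.69% of Cd74 fragments in the N library (exact binomial interval 8.24 to 11.3), 9.60% in the P library (7.86 to 11.6) and 13.9% in the R library (13.2 to 14.5). The interval of the R library did not overlap those of the other libraries, while StringTie divides shared reads between the forms by a model that the interval does not cover. Cd74 shares its StringTie locus with the microRNA gene Mir5107.

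Ciita had an FPKM of 0.32 (0.22 to 0.45) in the N library, 0.26 (0.17 to 0.38) in the P library and 15.1 (14.3 to 15.9) in the R library. These are 32, 26 and 1496 fragments. The intervals of the N and P libraries overlapped, and R over N was 47.1-fold (33.3 to 69.0). Its transcripts have 3 starts on chromosome 16, on the plus strand, whose first exons lie at 10480072 to 10480426, 10488178 to 10488424 and 10489781 to 10489864 in GRCm38 coordinates. The most upstream start is that used by dendritic cells, the middle that of B cells, and the most downstream that of the promoter known to answer interferon gamma. In the R library, transcripts of the most downstream start had an FPKM of 14.9, or 98.9% of Ciita, on 1478 fragments, and their first exon had a coverage of 44.8 reads per base. They were NM_001243761, with an FPKM of 8.52, and an assembled transcript shorter by a few bases, with 6.40. In the N and P libraries transcripts of that start were listed at 0. Transcripts of the most upstream start had an FPKM of 0.32, 0.26 and 0.17 in the N, P and R libraries, all of it on NM_001302619, and no read covered its first exon in any library. The transcript of the middle start was listed at 0 in all 3 libraries. The start of the few Ciita reads in the N and P libraries can therefore not be told from their first exons.

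**Figure D3:**
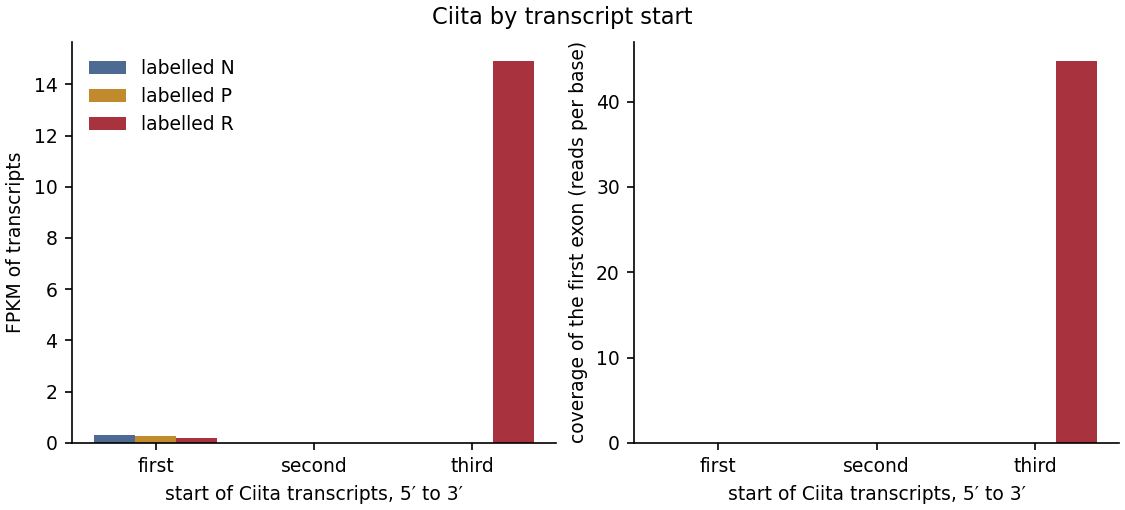
Ciita by transcript start in the 3 libraries, as FPKM of the transcripts of each start (left) and as coverage of their first exon in reads per base (right). In the R library the third start has an FPKM of 14.9 and a first exon coverage of 44.8, and first exons of the other starts have 0 in every library.

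The H2-DM genes encode the editor that loads peptides. H2-DMb1 had an FPKM of 0.43, 0.13 and 39.4 in the N, P and R libraries, and H2-DMb2 had 0.63, 0.16 and 39.6. These neighbours are close copies in a shared StringTie locus, and 2 assembled transcripts run across both genes and carry 63.8 of the 79.0 FPKM of the locus in the R library. The rest lay mainly on NM_010388 of H2-DMb2, with 6.62, and on the short assembled transcripts MSTRG.6152.5 and MSTRG.6152.6 at the end of H2-DMb1, with 6.43 and 2.08, all 3 of them listed at 0 in the N and P libraries. Their separate values are therefore uncertain, and the locus is better read as a whole. As a whole it had an FPKM of 1.06, 0.29 and 79.0. R over N was 74.7-fold (50.9 to 114) and R over P 269-fold (132 to 658). P over N was 0.28 (0.104 to 0.650). H2-DMa, the alpha chain of the same editor, had 7.48 (6.90 to 8.10), 10.1 (9.36 to 10.9) and 31.2 (29.7 to 32.7). R over N was 4.17-fold (3.79 to 4.58) and R over P 3.09-fold (2.82 to 3.38). Its values rest on 4 assembled transcripts, since the RefSeq transcript NM_010386 alone had an FPKM of 0, 0.097 and 0.59. The assembled transcript MSTRG.6151.1 had 3.39, 5.82 and 24.8, whereas MSTRG.6151.5, at 9304 bases the longest, had 2.17, 2.19 and 2.69 and MSTRG.6151.3 had 1.92, 1.38 and 2.15. H2-DMa was the gene in the group whose summed FPKM in the P library stood above the N library, with a ratio of 1.35 (1.21 to 1.51). Its fragments, 614, 689 and 1642 in the N, P and R libraries, lay closer together than its FPKM. The exon from 34137114 to 34137398 had a coverage of 114, 104 and 455, and that from 34137903 to 34138181 had 118, 129 and 548. The direction between N and P is therefore uncertain, since the intervals do not cover the division of reads among its transcripts. Ctss and Rfx5 followed other orders.

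Ctss encodes cathepsin S, the endosomal protease that trims the invariant chain. It had an FPKM of 3.59 (2.88 to 4.43) in the N library, 0.073 (0.0074 to 0.28) in the P library and 2.98 (2.36 to 3.72) in the R library, on 87, 2 and 78 fragments. R over N was 0.83, with an interval of 0.603 to 1.14 that includes 1, and N over P was 48.9-fold (12.3 to 495). This reading rests on the labels in doubt, since exchanging N and P takes the log2 ratio of R over N from -0.26 to 4.15. The level in the N and R libraries lay on NM_021281, with an FPKM of 3.59, 0 and 2.98. This order, lowest in the P library, was also that of the myeloid gene Lyz2, with an FPKM of 28.9, 0.31 and 6.51, and of the leukocyte gene Laptm5, with 1.94, 0.084 and 1.35. The part of leukocyte RNA in the level of Ctss was not tested. The Ctss promoter window is shown for another reason, since it was the window among the 7 genes with letters of the interferon-stimulated response element (GAAA repeated after 2 bases), here in capitals, which 3.46% of the genes in the table hold.
Ctss, chr3:95526745-95526785, plus strand: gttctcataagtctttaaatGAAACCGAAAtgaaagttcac

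The capitals end 11 bases before the start of the gene. H2-DMb2 was the only gene of the 7 with letters of the gamma-activated site (TTCNNNGAA), which 8.13% of the genes hold on either strand.

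Rfx5, a subunit of the RFX complex that binds the X box, had an FPKM of 7.62 (7.04 to 8.24), 7.25 (6.67 to 7.86) and 11.3 (10.6 to 12.1) in the N, P and R libraries. R over N was 1.49 (1.34 to 1.65), and the intervals of the N and P libraries overlapped. On the RefSeq transcript NM_017395 alone the levels were 3.63, 5.16 and 8.04, and R over N was past 2-fold. The remainder lay on an assembled transcript with 3.99, 2.09 and 3.29. All 9 other listed genes of RFX, NF-Y, CREB and the acetyltransferases that join them were measured, and 0 were 2-fold apart in any comparison. Kat2b, an acetyltransferase, had 9.06, 8.995 and 12.9, with a log2 ratio of R to N of 0.51 and of R to P of 0.52, beside 0.57 and 0.64 for Rfx5. Nfya, a DNA-binding subunit of NF-Y and the highest of them in the R library, had an FPKM of 14.0, 15.7 and 15.9. Rfxap and Rfxank, the partners of RFX5, had 14.8, 13.6 and 12.1 and 4.38, 4.51 and 4.67.

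The levels of the group kept a clear order in the R library. Cd74 at 466 was followed by H2-Ab1 at 84.4, with H2-Aa at 50.9 and H2-Eb1 at 47.8 next. The intervals of the last pair overlapped (47.8 to 54.1 and 45.5 to 50.3). H2-DMb2 and H2-DMb1, at 39.6 and 39.4, could not be ordered, and H2-DMa, Ciita, Rfx5 and Ctss followed at 31.2, 15.1, 11.3 and 2.98. In the N library the order was Cd74, Rfx5, H2-DMa, Ctss, H2-Ab1, H2-Eb1, H2-Aa, H2-DMb2, H2-DMb1 and Ciita. There the intervals of Rfx5 and H2-DMa and of Ctss and H2-Ab1 overlapped, and from H2-Eb1 down to Ciita each gene overlapped with its neighbour. In the P library Cd74, H2-DMa, Rfx5 and H2-Ab1 led, in this order and with intervals apart from each other, and the remaining 6 genes had an FPKM of 0.256 or less.

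Of 11 genes described here from the list of the interferon gamma pathway, 10 had an FPKM of at least 1. For R over N, 4 were at least 2-fold higher and 0 lower, with a median log2 ratio of 0.27 over the measured genes. Ifng itself, made by T and NK cells, was listed at 0 in all 3 libraries. Irf1, which acts at the interferon-gamma start of Ciita, had the highest level of these genes in the R library, with an FPKM of 79.4, 53.4 and 275 in N, P and R (R over N 3.46-fold, 3.33 to 3.60). Irf8 had 7.58, 4.62 and 40.9, and Irf9 had 5.34, 6.66 and 15.9. Socs1, the feedback inhibitor of the pathway, had 9.82, 3.54 and 43.5, and was the gene of the list at least 2-fold lower in the P library than in the N library. The receptor genes Ifngr1 and Ifngr2 and the kinase genes Jak1 and Jak2 were within 2-fold in every comparison.

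The class II genes lie in a stretch of chromosome 17 that also holds genes of the class I pathway. Of 6 listed genes there that are not class II genes, 5 were measured, and 4 were at least 2-fold higher in the R library than in both others. Psmb8, an immunoproteasome subunit and the highest of them, had an FPKM of 160, 126 and 441 in the N, P and R libraries. Psmb9 had 34.6, 22.2 and 176, and the peptide transporter genes Tap1 and Tap2 had 32.0, 20.9 and 214 and 63.9, 45.6 and 166. Brd2, a chromatin reader at the edge of the region, had 95.5, 92.7 and 102, and R over N was 1.07 (1.04 to 1.10). H2-Ob and H2-Eb2, which lie among the genes that were high in the R library, were at or near 0. The region as a whole was thus not raised evenly.

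**Figure D4:**
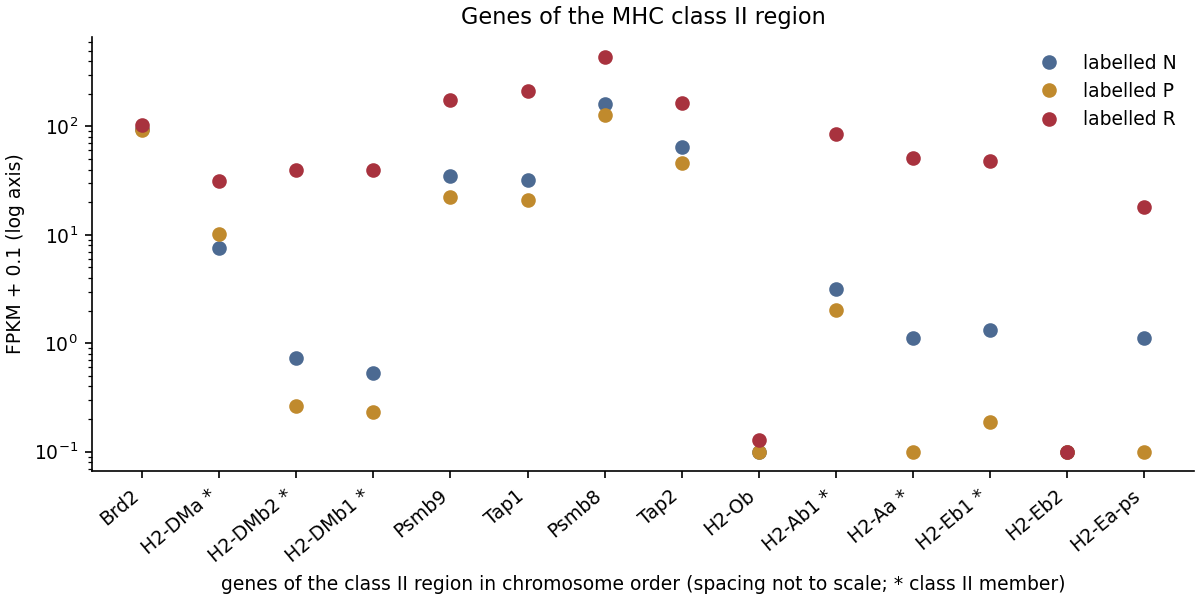
FPKM plus 0.1 on a log axis for 14 genes of the class II region in their order on chromosome 17, with 1 point for each library (spacing not to scale). The R library lies highest for the class II genes and for Psmb9, Tap1, Psmb8 and Tap2, while the libraries nearly coincide at Brd2, H2-Ob and H2-Eb2.

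Class I genes served as the nearest comparison. Nlrc5, the class I counterpart of Ciita, had an FPKM of 5.68, 5.75 and 42.8 in the N, P and R libraries, and R over N was 7.53-fold (6.98 to 8.13). The interval lay below that of Ciita (33.3 to 69.0), and its level in the N library lay above. H2-K1 had 352, 303 and 1050.0, and B2m, the light chain of class I and the highest of the list, had 1000, 888 and 2062. Both calls depended on the processing, since the log2 ratio of R over N fell from 1.58 to 0.62 for H2-K1 on RefSeq transcripts alone and from 1.04 to 0.97 for B2m after rescaling by the median ratio. Of the 6 class I genes, 5 were at least 2-fold higher for R over N, and the sixth, H2-D1, was 1.92-fold higher (1.89 to 1.95). The class I chains had an FPKM of 185 or more in every library, a level that Cd74 reached in the R library and the class II chains in none.

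Genes of other steps of class II presentation differed less. Of 11 listed genes of endosomal processing, 10 were measured and 0 were 2-fold apart in any comparison. Cst3, a cathepsin inhibitor and the highest of them, had an FPKM of 778, 714 and 525, and Ctsl, which trims the invariant chain in thymic epithelium, had 473, 401 and 505. Of 10 listed costimulatory genes and class II receptors, 4 were measured. The costimulatory genes Cd80 and Cd86 had an FPKM of 0.153 or less in each library. Icam1, an adhesion molecule for T cells, had 7.22, 3.53 and 18.2 (R over N 2.52-fold, 2.23 to 2.86), and Icosl had 0.73, 1.13 and 1.84. Tnfsf9, the highest of the list in the N library, had 31.0, 30.2 and 17.9.

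Class II genes are also genes of leukocytes, and splenocytes were present in culture for P and R. None of 8 B cell markers reached an FPKM of 1 in any library. Their summed level was 1.03, 0.21 and 1.80 in the N, P and R libraries, with Cd79a the highest at 0.37, 0.21 and 0.59. Pax5 had 0.069, 0 and 0.60. Of 9 dendritic cell markers 2 reached an FPKM of 1, Zbtb46 with 2.24, 2.50 and 2.60 and Batf3 with 1.73, 1.84 and 3.36. Clec9a, Siglech and Cd209a were listed at 0 in all libraries, and Itgax had 0.64, 0.011 and 0.039. The summed level of dendritic markers was 5.34, 4.69 and 6.45. Of 11 macrophage markers, 4 reached an FPKM of 1 in any library. Cd68 had 21.4, 18.0 and 19.2, Cd14 had 18.4, 12.5 and 17.1, and Adgre1, Mrc1 and the C1q genes had 0.274 or less in each library. Mpeg1 and Lyz2 departed from the others, with 0.70, 0.23 and 24.5 and with 28.9, 0.31 and 6.51. For R over N, of 4 measured macrophage markers 1 was at least 2-fold higher (Mpeg1) and 1 lower (Lyz2), with a median log2 ratio of -0.13. Summed, the macrophage markers had 70.8, 31.6 and 68.2, a sum in which Mpeg1 and Lyz2 moved in opposite directions between N and R. T cell markers summed to 0.95, 0.90 and 1.96, and neutrophil markers, 9 of 10 of them in the files, to 36.4, 13.1 and 22.8. General leukocyte markers summed to 46.1, 48.4 and 53.1, most of it on Itgb2, with 26.3, 35.9 and 34.1, and Lcp1, with 12.4, 12.1 and 12.3. Other markers of that list followed another order, with 1.08, 0.17 and 1.59 for Coro1a, 0.96, 0 and 1.42 for Tyrobp, and 0.20, 0 and 0.31 for Ptprc, which all leukocytes carry. For R over N, 0 of 6 measured general leukocyte markers were at least 2-fold higher and 0 lower, with a median log2 ratio of 0.18, and of 6 measured neutrophil markers 0 were higher and 2 lower, with a median of -0.53. For R over P, 4 of 6 general leukocyte markers were higher (Coro1a, Laptm5, Cd52 and Tyrobp), with a median log2 ratio of 2.82, and 4 of 5 neutrophil markers (S100a8, S100a9, Elane and Mpo), with a median of 3.14. Lyz2 was 20.8-fold higher in R than in P (9.27 to 58.4). Several leukocyte markers thus moved with the class II genes between P and R, and the part of leukocyte RNA in the class II levels was not tested. In bulk RNA, fewer cells of a type and less RNA per cell cannot be told apart. The carcinoma markers were present throughout, with an FPKM of 285, 242 and 245 for Epcam and 779, 653 and 528 for Krt18, the highest of 6.

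**Figure D5:**
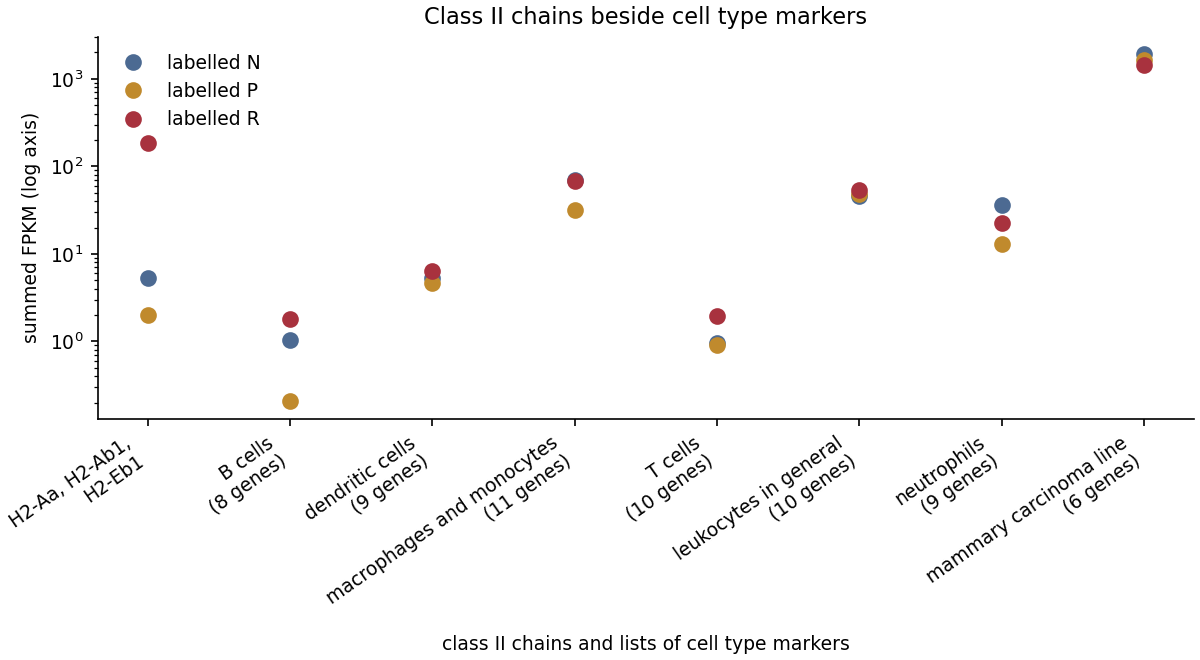
Summed FPKM on a log axis for H2-Aa, H2-Ab1 and H2-Eb1 and for 7 lists of cell type markers in the 3 libraries. The chains stand at 5.32, 2.01 and 183 in the N, P and R libraries, B cell markers at 1.03, 0.21 and 1.80 and macrophage markers at 70.8, 31.6 and 68.2. Within the macrophage sum, Mpeg1 is higher and Lyz2 lower in the R library than in the N library.

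Between the N and P libraries the group was not uniform. H2-Aa, H2-Eb1 and Ctss were at least 2-fold lower in the P library, with 20, 37 and 87 fragments in the N library against 0, 3 and 2. Read as 1 locus, H2-DMb1 and H2-DMb2 were also at least 2-fold lower, with an FPKM of 1.06 in the N library and 0.29 in the P library. The summed FPKM of H2-DMa was 1.35-fold (1.21 to 1.51) higher in the P library. Its fragments, 614 in the N library and 689 in the P library, differed less, so this direction is uncertain. H2-Ab1 and Cd74 were 1.59-fold (1.06 to 2.41) and 1.48-fold (1.36 to 1.60) higher in the N library, under 2-fold. Ciita and Rfx5 had overlapping intervals. The leukocyte genes Coro1a, Laptm5 and Cd52 were at least 2-fold lower in the P library as well, with Cd52 at an FPKM of 1.61, 0 and 1.35 in the N, P and R libraries. The neutrophil genes S100a8, S100a9, Ngp and Elane were lower too, with S100a8 at 8.20 and 0.55. Their part in the low class II levels of the N library was not tested. With the labels of N and P exchanged, the same values read as higher in P.

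The genes with profiles nearest to the chains and Cd74 were found over the 3 libraries, as the Euclidean distance in centred log2 values. Ranked were 7878 genes that reached an FPKM of 5 in any library. The members, predicted Gm genes, Rik genes, microRNAs and snoRNAs were left out before ranking. The nearest were Ubd, a ubiquitin-like modifier, with an FPKM of 0.37, 0 and 7.08, and Mpeg1, at distances of 0.56 and 0.57. Gbp2b, Batf2, Tgtp1, H2-Ea-ps, Gbp2 and Tgtp2 followed, among which the guanylate-binding protein gene Gbp2 had the highest level, with 25.9, 13.3 and 529. Nearest to Ciita were Apol6, with 0.41, 0.38 and 18.3 and a distance of 0.12, and then Gbp10, Tgtp2, Iigp1 and Batf2. With 3 libraries a profile is 3 numbers, so many genes can lie near to it.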

How the data were processed

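RNA of CSCsp was sequenced in 3 libraries, 1 per condition. Reads were aligned with HISAT2 (2.2.0) and quantified with StringTie, given as 2.1.3 in the submitters' notes and 2.1.5 by the headers of the files. The authors deposited coverage, FPKM and TPM for each RefSeq or assembled transcript, and made FPKM as coverage over aligned bases. The labels name mm9, but 99.3% of 23188 symbols overlap their GRCm38 gene.

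Gene values are sums of FPKM over 34970 transcripts of RefSeq and 9390 that were assembled, the latter given to the symbol of their locus with most shared exon bases. The 3130 assembled outside genes were left out. StringTie shares reads among overlapping transcripts. Fragments were estimated at 300 bases per read pair. The 3 comparisons used log2 ratios with a pseudocount of 0.1, a minimum FPKM of 1 in either library and a fold of 2. No test was possible with 1 library per condition. Members and gene lists were chosen with earlier results of these data known. The text names all members and gives their transcripts at an FPKM of 1 or more, list genes 2-fold apart and the highest of each list, up to 4 genes of a marker list, and the nearest profiles. Other genes named from lists were picked after their values were seen. Other settings tried were a rescaling by the median ratio, TPM, a pseudocount of 1 or 0.01, RefSeq transcripts alone, the highest transcript, no filter or an FPKM of 5, exchanged labels of N and P, and members without shared loci. An item of a list is not reported here. Ratios and intervals were run on simulated Poisson counts of whole genes. That run left out the scaling to FPKM summed over transcripts, so it says nothing on that step. Matplotlib 3.10.9, SciPy 1.17.1, pandas 2.3.3 and NumPy 2.4.6 were run under Python 3.11.15.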

Additional observations from a re-analysis of the deposited data

How the results depend on the processing

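No paired analysis was possible because each condition is 1 library, and leaving out a library was not possible either. Counts of members at least 2-fold higher, 8 relative to N and 9 relative to P, held within 1.5 times in all alternatives but 1, since leaving out members in shared loci left 5 of 7 for R over N. The count of 3 lower for P over N became 5 in TPM, 5 with no filter and 0 at an FPKM of 5, and exchanging the labels of N and P made it 0, with 3 higher. Median log2 ratios of members, 4.96, 5.40 and -0.92 for R over N, R over P and P over N, became 4.00 and 4.27 for the first 2 with a pseudocount of 1, and 3.58 and 4.39 on RefSeq transcripts alone. For P over N the median was -0.071 at an FPKM of 5, where it covers 3 measured members and not all 10, and 0.92 with labels exchanged, which also gave 4.96 for R over P. Exchanged labels turned the log2 ratio of P over N to 3.50 for H2-Aa, 2.82 for H2-Eb1, 4.41 for Ctss, 3.47 for H2-Ea-ps, 1.45 for Socs1 and 1.01 for Icam1, and that of R over P to -0.26 for Ctss. They also took R over N to 4.15 for Ctss, 1.88 for H2-Oa and 0.66 for Icosl. Rfx5 passed 2-fold for R over N on RefSeq transcripts alone and on the highest transcript, with a log2 ratio of up to 1.13. On the same 2 settings H2-K1 fell below 2-fold, to a log2 ratio of 0.62 relative to N and 0.55 relative to P, and Nlrc5 for P over N went from 0.017 to -1.94 and -1.21. B2m for R over N was 0.97 after rescaling, and with a pseudocount of 1 Icosl for R over N was 0.72 and H2-Oa for R over P 0.83. Icam1 for P over N, at -1.01, lay between -0.86 and -0.98 in TPM, on both transcript settings and with a pseudocount of 1. Counting H2-DMb1 and H2-DMb2 as 1 locus, added after the data were seen, kept every count and median of members in range. It gave 4 members lower for P over N, against 3.

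Over all genes P over N gave 58 higher and 173 lower, against 200 and 311 in TPM, 22 and 98 with a pseudocount of 1, 279 and 361 on RefSeq transcripts alone, 313 and 360 on the highest transcript, 328 and 594 with no filter and 10 and 64 at an FPKM of 5. R over N gave 346 and 211, and 250 and 124, 531 and 390, 619 and 411, 659 and 583 and 235 and 88 under the last 5 of these in that order, with 527 and 343 in TPM. R over P gave 466 and 190, with 637 and 375, 363 and 83, 639 and 380, 727 and 412, 892 and 564 and 318 and 84 under all 6. At 2 or 3 fragments in the P library, ratios of H2-Eb1 and Ctss are known only within wide intervals.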
